A study of Mus musculus with 6 samples.

Results

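The smooth muscle contractile, stress fibre and serum response factor (SRF) genes are a set of 39 genes, all of which were measured among 19938 genes tested. A gene entered the set by its symbol, through a probe set annotated with that symbol alone, and the probe set with the highest mean over the 6 arrays stood for a gene that had several. The set was divided by role into 20 filament and myosin genes, 9 crosslinker and scaffold genes, 6 focal adhesion genes and 4 genes of SRF and its cofactors. Cultured dermal cells of neonatal C57BL/6 mice were profiled on 6 one-colour arrays after 2 days. The DMSO group (3 arrays), named after the solvent, received neither compound, and the FR group (3 arrays) received forskolin and RepSox, each at 20 µM. Forskolin activates adenylyl cyclase, which makes cyclic AMP, and RepSox inhibits the kinase of the type I TGF-β receptor. The compounds were given together, so their separate effects cannot be told apart. No genetic alteration is named for either group. Whether the replicates are separate animals, separate dishes or aliquots of one culture is not given, so a p-value here covers the variation among these arrays alone, and that variation may be only technical.

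Stress fibres are bundles of actin filaments that are crosslinked by α-actinin, made contractile by myosin II and anchored to the matrix at focal adhesions. In fibroblasts that become myofibroblasts, and in smooth muscle cells, a shared group of actin, myosin and actin-binding genes is raised. Many of them are transcribed through SRF, which binds the CArG box and works with the myocardin-related cofactors MRTF-A and MRTF-B. These cofactors are held in the cytoplasm by monomeric actin and move to the nucleus when actin polymerises, and TGF-β and the GTPase RhoA are known inducers of the programme.

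The contractile and stress fibre genes were lower with forskolin and RepSox. Of the 39 genes, 31 fell (79.5%), where 14.5% of all genes tested fell, and 0 rose, where 13.4% of all genes tested rose. The members were chosen with earlier results of these data known, so these shares describe the set and are not an independent comparison. The median log2 change, given throughout as the FR mean minus the DMSO mean, was -0.64 over the set and 0.05 over all genes tested. By contrast 27.9% of all genes were called in either direction. At least 2-fold falls numbered 12 among the 39, against 1.50% of all genes, and at least 2-fold rises none, against 1.63%. The 3 FR arrays lay wholly below the 3 DMSO arrays for 34 of the 39 genes, against 20.9% of all genes, and wholly above them for none, against 23.0% of all genes. Changes were tested with limma on the log2 RMA values (RMA is the array summary described under the processing), and a gene was called where its Benjamini-Hochberg adjusted p over all genes was under 0.05. At an unadjusted p under 0.05, 0 members were higher and 32 were lower, against 21.2% and 18.8% of all genes. The 8 genes that did not pass were Tagln2, Tpm4, Synpo2, Palld, Zyx, Pxn, Ilk and Myocd. The level of a gene bears on these shares. Among the 2160 genes outside the set whose mean was at or above the set's median level of 8.75, 27.2% fell and 13.7% rose, with a median log2 change of -0.08. Of the 20 members at that level, 16 fell (80%), with a median of -0.65.

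**Figure D1:**
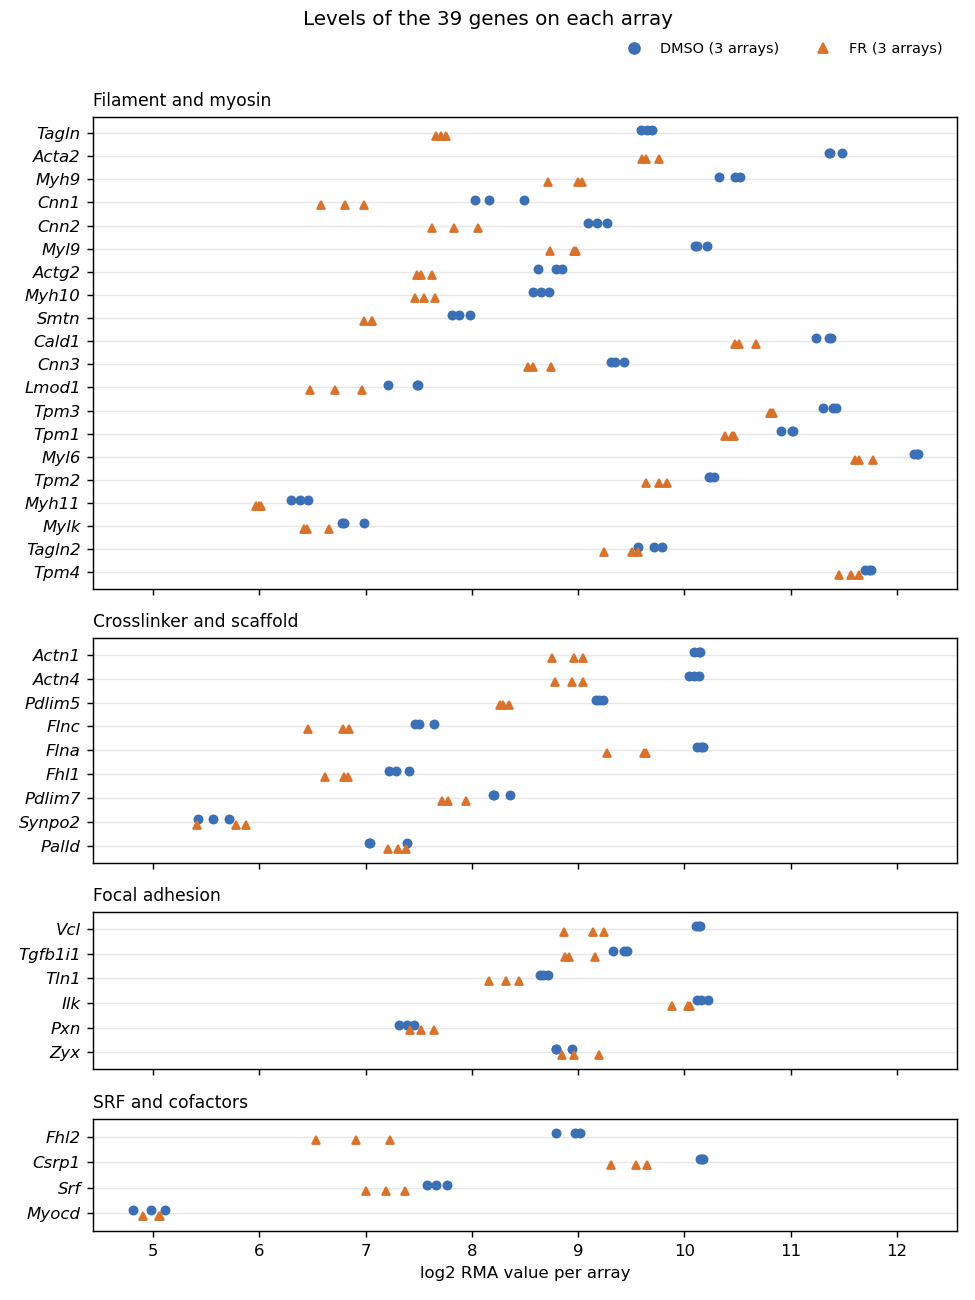
Log2 RMA value of each of the 39 genes (rows, by role) on the 3 DMSO arrays (circles) and the 3 FR arrays (triangles). The groups are separate, with FR lower, for 34 genes, and overlap for Synpo2, Palld, Pxn, Zyx and Myocd.

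Arrays correlated over all genes with r from 0.9956 to 0.9961 within DMSO, from 0.9926 to 0.9938 within FR and from 0.9717 to 0.9776 between groups, and genes are not independent replicates. The standard deviation was larger in FR for 30 of the 39 genes, with a median of 0.117 in FR and 0.0718 in DMSO, and over all genes the medians were 0.120 and 0.0879. FR replicate 3 gave the lowest FR value for 31 of the 39 genes, and its median distance from the DMSO means was -0.81, compared with -0.55 for replicate 1 and -0.52 for replicate 2. Without FR replicate 3 the count of members that fell was again 31.

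The dermal cells carried the genes that mark fibroblasts. All 10 fibroblast markers lay above 5.65 in both groups, a level that 95% of 1027 olfactory receptor genes did not reach in DMSO and that is taken here as background. Of 13 markers of pericytes and vascular smooth muscle, 8 lay above it in DMSO and 9 in FR, and 4 lay under it in both groups. Among those 4, Rgs5, a regulator of G protein signalling that marks pericytes, read 4.78 in DMSO and 4.84 in FR, and Des, the intermediate filament gene desmin, 5.57 and 5.62. The level of the pericyte and smooth muscle list, as the mean of its members on an array, was 6.24 to 6.34 in DMSO and 6.50 to 6.60 in FR, with 4 rises and 2 falls (Pdgfrb, which fell, is on the fibroblast list as well). At least 2-fold rises numbered 3 on this list and at least 2-fold falls 0. Its log2 changes ran from -0.96 to 1.74. The fibroblast list had 6 falls and 3 rises, and its level was 10.88 to 10.94 in DMSO and 10.67 to 10.73 in FR. Markers of other cell types moved with the treatment. Of 15 keratinocyte markers 12 rose and none fell, and the list's level was 6.02 to 6.13 in DMSO and 7.07 to 7.16 in FR. Of 15 skeletal muscle markers 13 rose and none fell (5.76 to 5.94 and 6.66 to 6.72), and of 9 adipocyte markers 7 rose and none fell (6.42 to 6.46 and 7.79 to 7.90). Already in DMSO, 11 of the keratinocyte, 10 of the skeletal muscle and 5 of the adipocyte markers lay above the background level. In FR these counts were 13, 13 and 7. The background level was set in DMSO alone, and the olfactory receptor genes had a median log2 change of 0.14. The same level was therefore easier to pass in FR. Of 9 endothelial markers 3 rose and 1 fell, and of 7 leukocyte markers 2 rose and 0 fell, most of them at background in both groups (6 and 5). The part of these cell types in the falls below was not tested, and in such bulk samples fewer cells of a type and less RNA per cell cannot be told apart.

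Sequences before the transcription start were read for the CArG box, the SRF binding motif, whose pattern reads alike on both strands. Of the 39 genes, 33 had a start in the RefSeq promoter sequences used here (GRCm38.p6), and the 250 bases before each start were searched. Tagln, Actg2, Myh11, Pxn, Tgfb1i1 and Myocd had none there and were not searched. Of the 33, 10 had several starts, and a match before any of them counted. Only an exact match of the pattern (CC and GG around A or T letters alone) was counted. A gene without a match may therefore hold variant boxes, or boxes outside the window. A CArG box was present in 7 of the 33 (21.2%), compared with 227 of 15614 genes tested (1.45%) and 1.47% of all 32851 promoter sequences. The set was drawn up to hold SRF genes, so a higher share may follow from the choice of members. All 7 genes fell, with a median log2 change of -1.05, as did 20 of the 26 members without the motif in that window (median -0.65). Outside the set, 33 of 220 genes with a CArG box fell (15%), and 14.6% of 15361 genes without one fell. The Srf promoter is shown whole because it holds a pair of boxes close to the start, and Srf itself was among the genes that fell. It lies at chr17:46556163-46556412 on the minus strand, and its boxes, in capitals, begin 82 and 62 bases before the start.
Srf: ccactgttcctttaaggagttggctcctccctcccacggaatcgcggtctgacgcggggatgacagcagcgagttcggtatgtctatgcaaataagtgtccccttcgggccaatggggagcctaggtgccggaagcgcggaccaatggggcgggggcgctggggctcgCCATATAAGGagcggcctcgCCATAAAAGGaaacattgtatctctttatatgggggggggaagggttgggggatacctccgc

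The other 6 genes are shown by the 30 bases around the box, since these are the members for which the motif and the array value can be read side by side. Fhl2 has 2 annotated starts with a box each, at chr1:43163973-43164002 and chr1:43196838-43196867 on the minus strand, 31 and 96 bases before the respective start. The Cnn2 window is chr10:79988534-79988563 (plus strand, 56 bases before the start), the Myl9 window chr2:156775293-156775322 (plus, 161 bases), and the Myl6 window chr10:128493040-128493069 (minus, 50 bases). The Vcl window is chr14:20929161-20929190 (plus, 227 bases) and the Fhl1 window chrX:56779571-56779600 (plus, 102 bases). Capitals mark the CArG box.
Fhl2, box 31 bases before its start: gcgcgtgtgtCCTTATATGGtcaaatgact
Fhl2, box 96 bases before its start: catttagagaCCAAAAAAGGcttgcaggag
Cnn2: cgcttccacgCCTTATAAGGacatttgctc
Myl9: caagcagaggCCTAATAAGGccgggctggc
Myl6: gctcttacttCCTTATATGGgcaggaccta
Vcl: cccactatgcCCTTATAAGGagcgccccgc
Fhl1: ccttggatcaCCTAAAATGGttaagaattt
Cnn2 and Vcl carry the same box letters, as do Myl6 and the Fhl2 box at 31 bases, while their log2 changes differed: -1.34 for Cnn2, -1.05 for Vcl, -0.51 for Myl6 and -2.04 for Fhl2. A pair of further motifs was searched on both strands of the same windows. GGAATG, the core that TEAD factors bind, was present in 13 of the 33 genes (39.4%) and in 13.2% of the genes tested, and TGACGTCA, the cyclic AMP response element, in 1 (3.03%, Myl6) and in 2.33%. None of these matches overlapped a CArG box in the members. How the choice of members bears on the GGAATG share was not tested. A match of letters is a description of the sequence and does not show that a factor binds there.

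The smooth muscle actins and several of their thin filament partners fell at least 2-fold. Acta2, the smooth muscle α-actin gene that marks myofibroblasts, read 11.37, 11.36 and 11.48 on the DMSO arrays and 9.76, 9.64 and 9.60 on the FR arrays. The groups were separated by far more than the spread within them, and Acta2 was 3.33-fold lower with FR (log2 change -1.74, SE 0.09, adjusted p = 1.94e-07, limma). Actg2, the smooth muscle γ-actin gene, went from 8.63, 8.80 and 8.85 to 7.62, 7.52 and 7.49, a 2.32-fold fall (-1.21, SE 0.09, adjusted p = 3.48e-06). The 2 actins are nearly identical in sequence, so their probe sets may share signal. The cytoplasmic β-actin gene Actb, outside the set, fell by 0.29 on the log2 scale (adjusted p = 0.0159), and 4 probe sets annotated to both Actg1 and Actb changed by -0.36 to -0.47. Actc1, the cardiac actin gene, moved the other way (2.16), together with the skeletal actin gene Acta1 (0.59).

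Tagln, which encodes the actin-binding protein transgelin (SM22α), had the largest fall among the filament genes. Its values were 9.59, 9.65 and 9.70 in DMSO and 7.71, 7.75 and 7.67 in FR, which is 3.83-fold lower (log2 change -1.94, SE 0.08, adjusted p = 8.29e-08). The spread in FR was as small as in DMSO (SD 0.044 and 0.0526). Its broadly expressed relative Tagln2 read 9.57, 9.72 and 9.79 in DMSO and 9.51, 9.56 and 9.24 in FR. These values did not overlap but lay close together, and Tagln2 did not pass (-0.26, 95% interval -0.49 to -0.02, adjusted p = 0.0989). With trend and robust moderation of the variance it did (adjusted p = 0.0309).

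The calponins, which bind actin and dampen myosin activity, all fell. Cnn1, the smooth muscle calponin, went from 8.03, 8.49 and 8.16 to 6.80, 6.98 and 6.58 (2.71-fold lower, log2 change -1.44, SE 0.13, adjusted p = 1.86e-05). Cnn2 went from 9.17, 9.28 and 9.09 to 8.06, 7.62 and 7.83 (2.54-fold lower, -1.34, SE 0.11, adjusted p = 8.7e-06). Cnn1 had the widest DMSO spread of the 39 genes (SD 0.239), and its lowest DMSO value still lay above its highest FR value. Cnn3, the acidic calponin, fell less, by 0.74 (SE 0.09). Among other thin filament proteins, Smtn, the gene of smoothelin, fell by 0.85 (SE 0.08), and Cald1, whose product caldesmon binds both actin and myosin, fell by 0.77 (SE 0.09). Lmod1, which encodes an actin filament nucleator of smooth muscle, fell by 0.68 (SE 0.13, adjusted p = 0.00264), a call lost without variance moderation (adjusted p = 0.0728).

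Of the 4 tropomyosins, which wind along the actin filament, 3 fell, and for Tpm3 the call depended on the probe set. Tpm1 fell by 0.55, Tpm2 by 0.50 and Tpm3 by 0.56 on the log2 scale, with adjusted p of 0.000501, 0.00124 and 0.000405. Tpm1 read 11.01, 11.02 and 10.91 in DMSO and 10.45, 10.47 and 10.38 in FR. Tpm4 read 11.70, 11.74 and 11.75 in DMSO and 11.57, 11.64 and 11.46 in FR. Its groups did not overlap, but the change of -0.17 did not pass (95% interval -0.36 to 0.01, adjusted p = 0.152), and it passed with trend and robust moderation (adjusted p = 0.0166). A second probe set annotated to Tpm4 and a predicted gene changed by -0.16 and did not pass either. The 4 probe sets of Tpm3 gave -0.56, -0.51, -0.37 and -0.18. The last of these did not pass when every probe set on the arrays was tested (adjusted p = 0.143). The Tpm3 call is that of the probe set with the highest mean, which gave -0.56. Probe set numbers mostly followed the chromosomes of the genes. The number of that set lay between those of Vcl (chromosome 14) and Myh9 (chromosome 15), whereas Tpm3 lies on chromosome 3. The Tpm3 set numbered closest to the chromosome 3 genes of the set was the one at -0.18. Whether each probe set reads the Tpm3 gene alone was not tested.

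The myosin genes fell as well, and Myh9 had the largest change among them. Myh9, the heavy chain of non-muscle myosin IIA, read 10.48, 10.53 and 10.33 in DMSO and 9.00, 9.04 and 8.72 in FR, 2.88-fold lower (log2 change -1.53, SE 0.10, adjusted p = 2.02e-06). Its other probe set gave -1.14. Myh10, the heavy chain of non-muscle myosin IIB, went from 8.65, 8.72 and 8.58 to 7.65, 7.55 and 7.46 (2.14-fold lower). Myh11, the smooth muscle myosin heavy chain and a late marker of that cell type, read 6.46, 6.38 and 6.30 in DMSO and 6.02, 5.97 and 5.99 in FR, a fall of 0.38 (SE 0.08, adjusted p = 0.00532). Its values lay not far above the background level of 5.65, which limits the fall that could be read. Myl9, the regulatory light chain that is phosphorylated to start contraction, went from 10.10, 10.21 and 10.12 to 8.96, 8.98 and 8.74 (2.38-fold lower, adjusted p = 3.28e-06). The essential light chain Myl6 fell by 0.51, and its 6 probe sets gave changes from -0.44 to -0.68. Mylk, the kinase that phosphorylates the regulatory light chain, fell by 0.34 (adjusted p = 0.0237). This was the least firm call of the set, since it was lost without DMSO replicate 1 (adjusted p = 0.1), FR replicate 1 (0.0584) or FR replicate 2 (0.0735), and without variance moderation (0.0971).

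**Figure D2:**
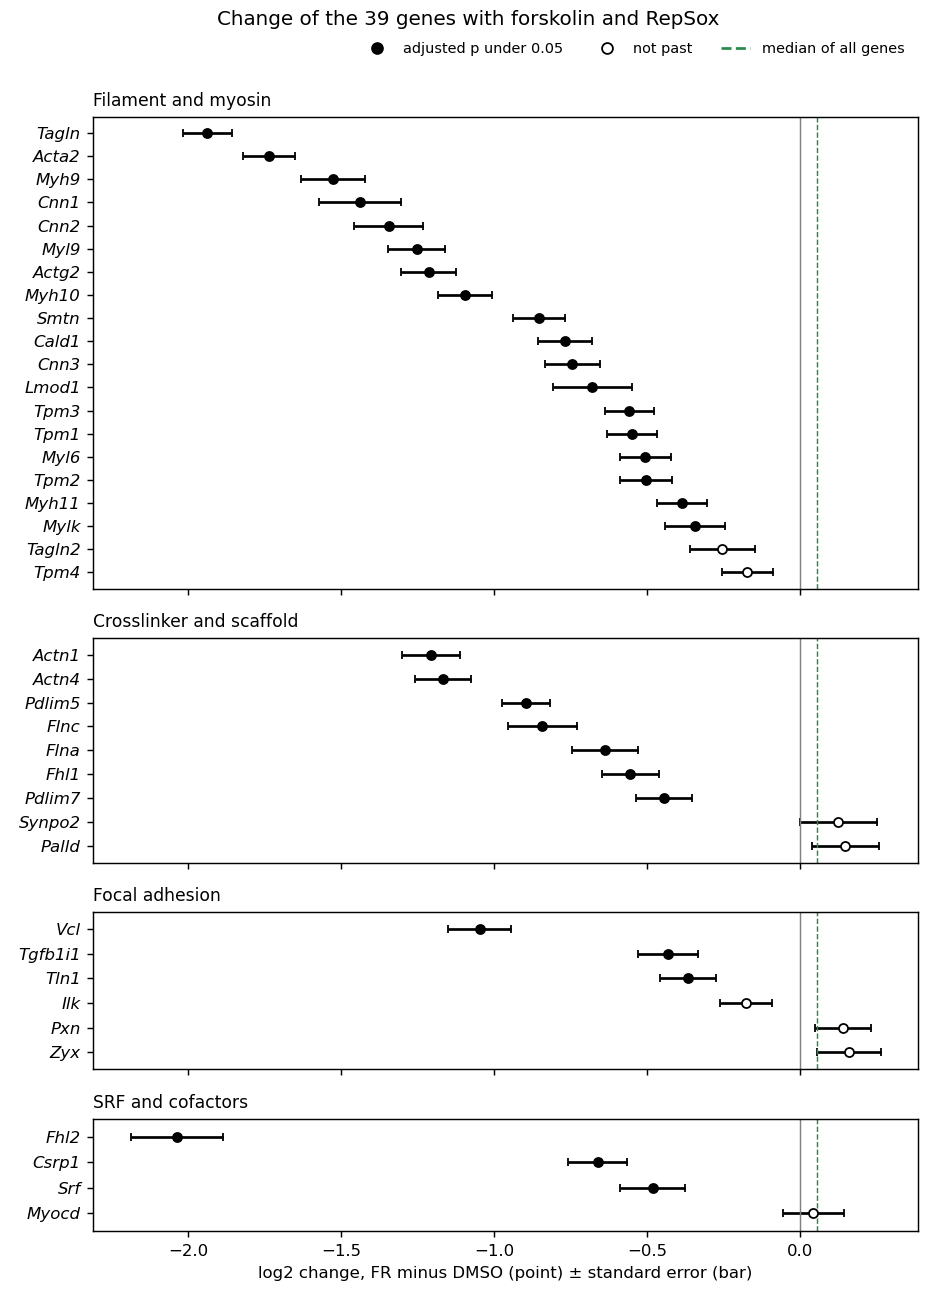
Log2 change (FR minus DMSO) of each of the 39 genes with its standard error, by role, filled where adjusted p was under 0.05. Of the 20 filament and myosin genes 18 are filled, of the 9 crosslinker and scaffold genes 7, of the 6 focal adhesion genes 3, and of the 4 genes of SRF and its cofactors 3. The dashed line is the median of all genes tested (0.05).

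Of the 9 crosslinker and scaffold genes, 7 fell, with a median log2 change of -0.64. The α-actinins, which crosslink the filaments of stress fibres, fell by nearly the same amount. Actn1 read 10.15, 10.14 and 10.09 in DMSO and 8.96, 9.05 and 8.75 in FR (2.31-fold lower, -1.21, SE 0.09, adjusted p = 5.08e-06). Actn4 went from 10.09, 10.13 and 10.04 to 8.95, 9.05 and 8.78 (2.25-fold lower, -1.17, SE 0.09, adjusted p = 5.26e-06). On both, FR replicate 3 was the lowest array. Pdlim5, whose PDZ and LIM domains tie it to α-actinin, fell by 0.89 with little spread (9.23, 9.19 and 9.17 against 8.35, 8.27 and 8.29), and its relative Pdlim7 fell by 0.44 (adjusted p = 0.00462). The filamins, which join filaments into networks, fell by 0.84 for the muscle form Flnc and by 0.64 for the common form Flna. For Flna the DMSO arrays read 10.12, 10.17 and 10.15, and FR replicate 3, at 9.27, lay apart from the other FR arrays at 9.64 and 9.62. Fhl1, a LIM-only protein gene of muscle, fell by 0.55.

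The scaffold genes Synpo2 and Palld did not pass. Palld, which encodes the α-actinin partner palladin, read 7.04, 7.04 and 7.39 in DMSO and 7.31, 7.38 and 7.21 in FR (0.15, 95% interval -0.09 to 0.39, adjusted p = 0.336). Synpo2, the gene of myopodin, read 5.43, 5.71 and 5.56 in DMSO and 5.41, 5.78 and 5.88 in FR, around the background level of 5.65 (0.12, adjusted p = 0.488). The groups overlapped for both genes.

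The focal adhesion genes divided. Of 6, 3 fell, and the median was -0.27. Vcl, the gene of vinculin, which links talin to actin, read 10.14, 10.10 and 10.15 in DMSO and 9.24, 9.14 and 8.87 in FR, a 2.07-fold fall (-1.05, SE 0.10, adjusted p = 2.85e-05). Tgfb1i1, the gene of the LIM protein Hic-5, known as a TGF-β induced gene, fell by 0.43 (9.33, 9.43 and 9.46 against 8.87, 9.15 and 8.91, adjusted p = 0.00721, and 0.0588 without variance moderation). Tln1, the gene of talin, which binds integrin tails, fell by 0.37 (adjusted p = 0.0131). With DMSO replicate 2 left out it missed the threshold (adjusted p = 0.0509), as it did without variance moderation (0.0607).

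The remaining focal adhesion genes did not pass. Zyx, the gene of zyxin, a LIM protein recruited to strained stress fibres, read 8.79, 8.94 and 8.79 in DMSO and 8.96, 9.19 and 8.84 in FR (0.16, 95% interval -0.07 to 0.39, adjusted p = 0.279). Pxn, the adaptor gene paxillin, read 7.32, 7.46 and 7.39 in DMSO and 7.52, 7.65 and 7.41 in FR (0.14, 95% interval -0.06 to 0.34, adjusted p = 0.274). In both genes the highest DMSO array lay above the lowest FR array. Ilk, the integrin-linked kinase gene, read 10.16, 10.12 and 10.22 in DMSO and 10.05, 10.03 and 9.88 in FR, a separated but small difference (-0.18, adjusted p = 0.145, and 0.0426 with trend and robust moderation).

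Fhl2, a LIM-only cofactor that binds SRF, had the largest fall of the 39 genes, and was 22nd of all genes tested by the size of the fall. It read 8.79, 9.02 and 8.97 in DMSO and 7.23, 6.91 and 6.53 in FR, 4.10-fold lower (-2.04, SE 0.15, adjusted p = 3.38e-06). Its FR arrays were the most widely spread of the set (SD 0.348), yet each lay far below the DMSO arrays, and the log2 change stayed between -2.21 and -1.86 under the 16 alternatives tried. Srf read 7.58, 7.77 and 7.67 in DMSO and 7.19, 7.37 and 7.00 in FR, a 1.40-fold fall (-0.48, SE 0.11, adjusted p = 0.00629, and 0.0715 without variance moderation). Csrp1, a LIM protein gene of smooth muscle that acts with SRF, fell by 0.66 from closely grouped DMSO values (10.16, 10.15 and 10.17) to 9.54, 9.64 and 9.31. Myocd, the gene of myocardin, the SRF cofactor of cardiac and smooth muscle, read 5.11, 4.81 and 4.98 in DMSO and 5.06, 4.90 and 5.07 in FR. Its groups overlapped, both means lay under the background level, and it did not pass (0.04, adjusted p = 0.778).

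**Figure D3:**
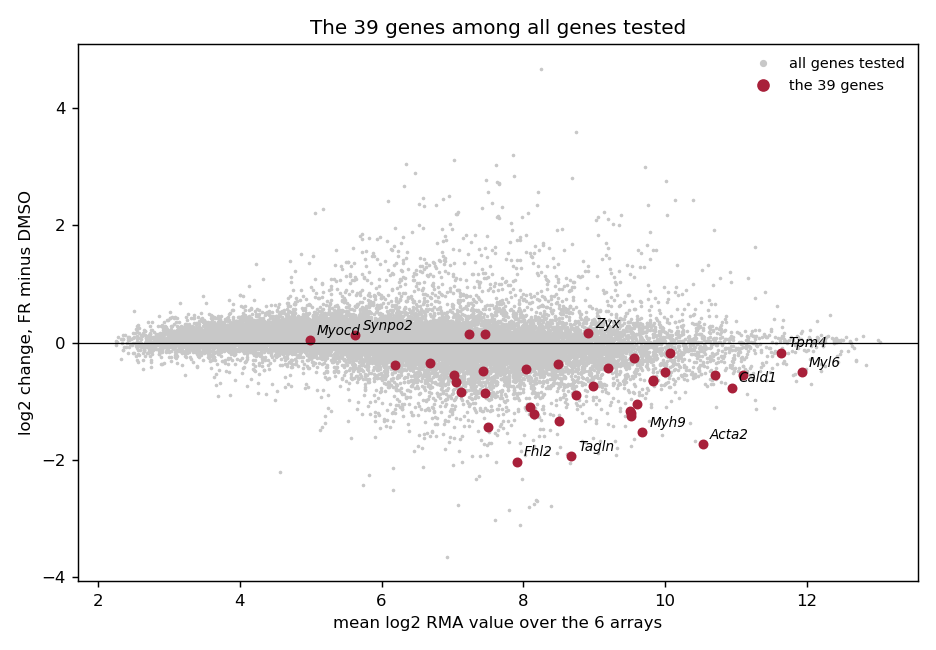
Log2 change (FR minus DMSO) against the mean log2 RMA value over the 6 arrays for all 19938 genes tested (grey) and the 39 genes (red), of which 10 are named. The red points lie from -2.04 for Fhl2 to 0.16 for Zyx.

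Members of a family could be compared on the same arrays, since the difference between 2 probe sets of an array removes what is common to that array. For 19 such pairs within families the change of one member minus that of the other was tested by an exact two-sided permutation over the 6 arrays, which cannot give a p below 0.1 with 3 against 3. In 14 pairs the groups did not overlap (exact p = 0.1, and 0.136 adjusted over the 19 pairs), so no pair could pass. The change of Tagln minus that of Tagln2 was -1.68 (SE 0.09), and the change of Fhl1 exceeded that of Fhl2 by 1.48 (SE 0.16). Myh9 differed from Myh11 by -1.14 (SE 0.11) and from Myh10 by -0.43 (SE 0.07). Myh11 lay not far above background, which limits the fall it could show and so bears on its difference from Myh9. For Acta2 against Actg2 the difference was -0.52 (SE 0.05), and for Myl9 against Myl6 it was -0.75 (SE 0.07). Tpm1, Tpm2 and Tpm3 differed from Tpm4 by -0.378, -0.331 and -0.385. Pairs whose groups overlapped were Cnn1 with Cnn2 (difference -0.09, SE 0.23, exact p = 0.8), Tpm1 with Tpm2 (-0.05, SE 0.05, exact p = 0.5), Tpm1 with Tpm3 (0.01, SE 0.02, exact p = 0.9), Tpm2 with Tpm3 (0.05, SE 0.06, exact p = 0.5) and Actn1 with Actn4 (-0.04, SE 0.02, exact p = 0.2).

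The regulators upstream of SRF and of myosin were read from companion lists. Among 18 SRF partners outside the set, 7 fell and 3 rose, and the median was -0.12. The cofactor genes Mrtfa (-0.14, adjusted p = 0.275) and Mrtfb (0.16, adjusted p = 0.291) did not pass. Of the ternary complex factors, which join SRF at growth factor responsive genes, Elk3 fell by 0.69 and Elk1 by 0.36. Mef2c, a muscle transcription factor gene, fell by 0.71, while Gata6, which encodes a GATA factor of smooth muscle, rose by 0.79 and Tead1, a DNA-binding partner of YAP, by 0.66. Of 32 genes of small GTPase signalling and myosin phosphorylation, 16 fell and 1 rose, with a median of -0.28. Ppp1r14a, the gene of CPI-17, an inhibitor of myosin phosphatase in smooth muscle, fell by 1.06, the GTPase genes Rhoc and Rhob by 1.05 and 0.98, and Arhgef2, a RhoA exchange factor gene, by 0.98. Rhoa itself fell by 0.38 (adjusted p = 0.00809) and the kinase gene Rock1 by 0.31 (adjusted p = 0.0444). The rise was that of Mylk4, a myosin light chain kinase gene, at 4.32 in DMSO and 4.71 in FR, both under the background level.

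Further focal adhesion genes were lower in the main. Of 30 measured, 20 fell and 3 rose, with a median of -0.54, and the difference from the 6 in the set was not tested. Nexn, the gene of the actin-binding protein nexilin, fell by 1.74, and the tensin genes Tns3 and Tns1, whose products tie integrins to actin, by 1.57 and 1.21. The integrin subunit genes Itgav and Itgb1 fell by 1.43 and 0.57. The 3 that rose were Enah (0.76) and Evl (0.50), which encode actin elongation factors of one family, and the collagen receptor subunit gene Itga2 (0.60). Vasp, the remaining member of the family of Enah and Evl, fell by 0.51 (adjusted p = 0.0055). Of 29 further crosslinkers and LIM-domain scaffolds, 9 fell and 3 rose (median 0.09). The falls were led by Pls3, the gene of the bundling protein plastin (-1.38), the LIM protein gene Crip1 (-1.37), the actin-binding gene Lasp1 (-1.28) and the linker gene Plec (-0.80).

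Further smooth muscle and myosin genes did not move as a block. Of 30, 9 fell and 3 rose, with a median of 0.01. Nexn is also on this list. Sorbs2, an adaptor gene of adhesions and Z-discs, fell by 0.63 and the regulatory light chain gene Myl12a by 0.38, while the calcium store gene Casq2 rose by 0.90 and the leiomodin gene Lmod2 by 0.50, both from and to levels under the background. Des did not pass (0.05, adjusted p = 0.808). Of 16 SRF targets outside the contractile apparatus, 5 fell and 1 rose (median -0.21). Ccn1, Ccn2 and Thbs1, which encode matricellular proteins, fell by 1.68, 1.66 and 1.12, and Tgfb1, a TGF-β ligand gene, by 0.96. The immediate early genes Egr1 (-0.33, adjusted p = 0.0885) and Fos (0.17, adjusted p = 0.306) did not pass. Ier3 rose by 0.62.

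**Figure D4:**
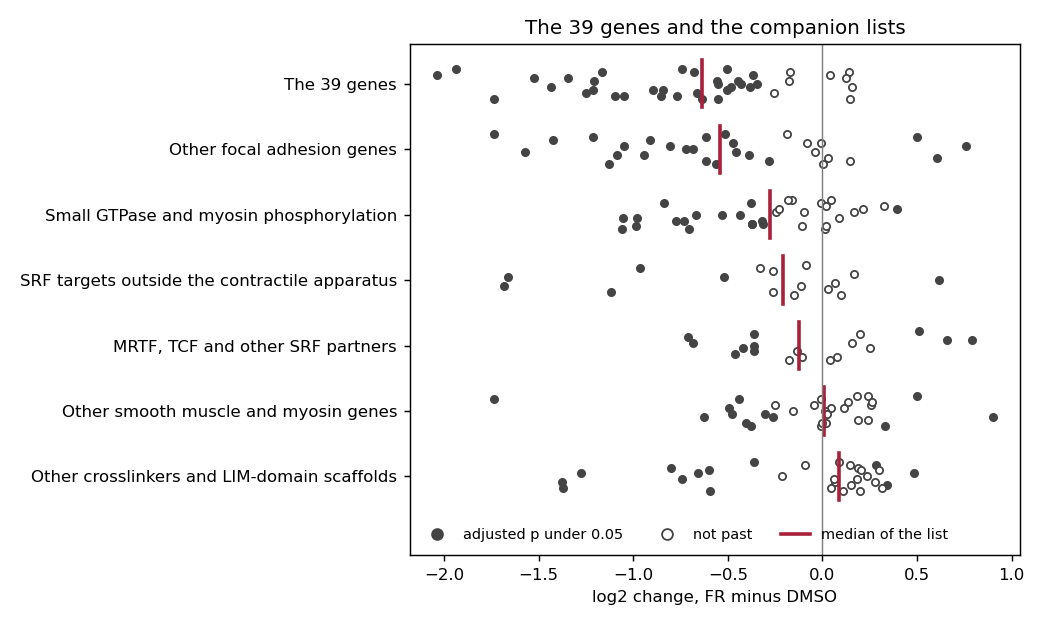
Log2 change (FR minus DMSO) of each gene of the set and of 6 companion lists, filled where adjusted p was under 0.05, with the list's median as a bar and a vertical scatter that carries no value. Medians run from -0.64 for the 39 genes and -0.54 for further focal adhesion genes to 0.09 for further crosslinkers and scaffolds.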

How the data were processed

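Total RNA was labelled with biotin and hybridised to one-colour arrays, per the labels' protocols. The table the authors deposited gives log2 values for 35556 probe sets and 6 arrays. Per the submitters' processing notes they come from RMA in the oligo package, whose version is not given in the sources used here. As usually run, RMA corrects background, equalises the distributions of the arrays and summarises probes into probe sets. The deposited table had 0 missing values, and 0 of 15 pairs of arrays were identical. Of the probe sets, 21789 had 1 gene symbol, 1621 had several and were left out of the gene tests, and 12146 had no listed gene. The highest mean over the 6 arrays chose the probe set of a gene, which gave 19938 genes. The group difference was tested two-sided in R 4.3.3 by limma 3.58.1 (a linear model with group alone, moderated by eBayes), with Benjamini-Hochberg adjustment, a threshold of 0.05 and no filter on dim genes. The test was checked on simulated data with independent noise, in which 200 genes were changed. It recovered 95% of log2 changes of 1 but 44% of changes of 0.5, with 3 false calls among 142. Far more genes (5559) were called in the data, and the adjusted p depends on that number. The recovery rates therefore need not hold for the data. Members and lists were chosen with earlier results of these data known. All 39 members are given by name, with the up to 4 largest changes that passed from each companion list and genes fixed with the lists. Cell type lists, for which the rule allowed up to 3 genes, are given mainly by counts and levels. Others that complete a small count were chosen after their values were seen. Some genes of the lists were not analysed here. The CArG, TEAD and cyclic AMP motif searches, the family pairs and the level of 8.75 were chosen after the data were seen. Promoter sequences are those of RefSeq on GRCm38.p6. Precision is limited by the number of arrays (median standard error over all genes 0.0962). Alternatives were quantile normalization, centring on array medians, cyclic loess, dim genes left out, the mean of probe sets, every probe set tested, trend and robust moderation, array weights, no variance moderation, a replicate block, and each array left out.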

Additional observations from a re-analysis of the deposited data

How the results depend on the processing

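Under the 16 alternatives the number of the 39 genes that fell lay between 26 and 34, and none rose under any of them. Leaving out each array in turn gave 30 to 31 falls among the members and a median log2 change between -0.69 and -0.55. Of the 31 genes that fell, 26 were called in each alternative, and the exceptions were Lmod1, Mylk, Tln1, Tgfb1i1 and Srf. Without variance moderation the members that fell numbered 26, the focal adhesion genes that fell dropped from 3 to 1 (Vcl), and the genes called among all genes dropped from 5559 to 3364, and the cause was not tested. Trend and robust moderation added Tagln2, Tpm4 and Ilk. Centring the arrays on their medians moved the share of falls among all genes called from 52% to 64.7% (3447 fell and 1880 rose), and the members that fell again numbered 31, as they did with quantile normalization and cyclic loess. The replicate block also gave 31 falls among members, with 4977 genes called in all. Replicates with the same number did not deviate together (r = -0.07, 0.05 and -0.03 over genes for numbers 1, 2 and 3), and not every array correlated best with its own number. With 3 arrays a group, the genes that did not pass are not shown to be unaffected.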
